A study of Drosophila melanogaster with 24 samples.

Results

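Transcription start sites (TSSs) of whole Drosophila melanogaster embryos were compared between embryos collected 4-6 h and 2-4 h after laying. The measurement was capped short RNA-seq (csRNA-seq), which sequences short capped RNAs and is used to read the initiation of new transcripts at single promoters. For each gene the promoter TSS with the highest mean over the 6 libraries of both windows was taken, and genes with a mean of at least 3 were kept. This left 7519 of the 10709 genes with a promoter TSS, out of 45839 merged TSSs in all, of which 18098 lay at promoters. Just inside the limit were lncRNA:CR44889 and CG5819 with means of 3.004 and 3.003, and just outside were CG32022 and tbrd-3 with 2.9997 and 2.996.

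The 4-6 h group held 1 csRNA library each of the strains Cas9, F3 and M6, and so did the 2-4 h group. Cas9 embryos have the genotype tinWT, and F3 and M6 are both tinmDPE, lines altered in the downstream core promoter element of tin (tinman), a homeobox gene needed for heart formation. All embryos were aged at 25 °C, and RNA came from dechorionated whole embryos. The libraries of 0-2 h and 6-8 h from the same 3 strains entered the fit and served as a further check, and input libraries were not analysed here. The 4-6 h libraries held 3413876, 5137015 and 6616015 tags in Cas9, F3 and M6, against 3570383, 4997648 and 4501195 tags at 2-4 h. Values are the authors' regularized log (rlog) values, on a log2 scale, and values below are listed in the order Cas9, F3, M6. Nothing says that the libraries came from separate collections of 1 strain. The p-values measure how far the 3 single lines depart from a shared course over the windows, which may be partly technical. Constant differences between the lines were fitted out, and differences in change between the genotypes count in this spread. In whole embryos, fewer cells of a type and less initiation per cell cannot be told apart. Whether RNA loaded by the mother adds to the values, and its loss to the falls, was not tested.

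In the fly embryo the first divisions run on RNA that the mother loads into the egg, and the zygotic genome switches on in force while the nuclei of the syncytial blastoderm are enclosed by membranes (cellularization). The earliest zygotic genes are often short and without introns, and many are switched on by Zelda, a DNA-binding protein that recognises CAGGTA and related sequences. Gastrulation, segmentation and the formation of neuroblasts and muscle precursors follow, under genes that are regulated by tissue.

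The start sequences below show the core promoters of some of the genes that fell and are described below. They are read from the dm6 genome (RefSeq Release 6), 5′ to 3′ on the strand of the TSS, and hold 40 bases before the called start and the first 20 bases from it. Capitals mark a TATA box (TATAAA or TATATA, beginning 33 to 28 bases before the start) and an initiator (TCAGTC, allowing T for its G and T for its final C, with its A within 5 bases of the start).
slam, chr2L:6373481-6373540, plus strand: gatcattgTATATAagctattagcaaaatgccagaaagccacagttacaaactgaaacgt
Sry-alpha, chr3R:30041179-30041238, plus strand: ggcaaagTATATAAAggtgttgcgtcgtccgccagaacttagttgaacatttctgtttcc
Z600, chr3L:15509021-15509080, plus strand: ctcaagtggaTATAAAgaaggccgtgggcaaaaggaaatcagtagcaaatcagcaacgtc
bnk, chr3R:31193322-31193381, plus strand: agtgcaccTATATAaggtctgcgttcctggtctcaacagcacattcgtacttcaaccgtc
tsg, chrX:11988921-11988980, minus strand: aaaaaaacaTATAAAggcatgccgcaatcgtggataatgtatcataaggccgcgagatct
scw, chr2L:19700940-19700999, minus strand: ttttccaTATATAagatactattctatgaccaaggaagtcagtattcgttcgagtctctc
Bsg25A, chr2L:4684382-4684441, minus strand: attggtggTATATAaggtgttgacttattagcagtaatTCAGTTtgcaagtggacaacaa
Elba3, chr2L:4687473-4687532, plus strand: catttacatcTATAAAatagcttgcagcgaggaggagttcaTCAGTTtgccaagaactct
CG43184, chr3L:13837703-13837762, plus strand: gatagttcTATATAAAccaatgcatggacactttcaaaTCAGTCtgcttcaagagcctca
zen, chr3R:6754175-6754234, minus strand: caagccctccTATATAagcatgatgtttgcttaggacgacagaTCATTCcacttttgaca

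All 12 genes with the largest falls had a TATA box at this place and a Zelda core in the promoter window, as described below, and 3 of the 12 had an initiator. The largest rises are shown for comparison, with the same marks.
CG9444, chr3R:9684196-9684255, minus strand: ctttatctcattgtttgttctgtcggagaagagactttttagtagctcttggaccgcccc
CG9593, chr3R:15802216-15802275, plus strand: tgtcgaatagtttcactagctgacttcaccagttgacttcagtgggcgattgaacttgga
org-1, chrX:8454962-8455021, minus strand: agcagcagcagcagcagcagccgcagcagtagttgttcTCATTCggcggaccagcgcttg
in, chr3L:20367160-20367219, plus strand: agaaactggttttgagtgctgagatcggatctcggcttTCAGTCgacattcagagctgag
CG12011, chr3L:1694579-1694638, plus strand: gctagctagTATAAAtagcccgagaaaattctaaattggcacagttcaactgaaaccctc
Of the 12 largest rises, 1 had a TATA box and 6 had an initiator.

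The targeted gene tin did not pass the test between the windows. It had 7.06, 6.37 and 6.24 at 4-6 h, against 7.61, 5.68 and 6.13 at 2-4 h. The windows overlapped, with Cas9 lower and both tinmDPE lines higher at 4-6 h. The change was 0.09 ± 0.32 (SE) on the log2 scale (limma, adjusted p = 0.939).

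Far more promoters fell than rose. Of the 7519 genes, 233 fell (3.10%) and 58 rose (0.771%) at 4-6 h, with limma and Benjamini-Hochberg adjustment over all TSSs at 0.05. Over all 45839 TSSs, 1.72% were lower and 0.386% were higher. The falls were also larger, with a median of -1.82 on the log2 scale against 1.24 for the rises and -0.04 for all genes. A change beyond 2 was found for 92 of the falls and 1 of the rises. All 233 falls and all 58 rises had the same sign in 3 of 3 strains, against 2714 of all 7519 genes, and the windows did not overlap in 226 of the falls and in 58 of the rises, against 852 lower and 846 higher genes of all. Since the calls were made on the same values, these counts describe them and add no support. Without adjustment, 884 genes were lower and 696 were higher at p under 0.05.

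The number of calls changed with the libraries in the fit. With the 6 libraries alone, 15 genes fell and 0 rose, without the 6-8 h libraries 41 fell and 0 rose, and without the 0-2 h libraries 186 fell and 26 rose. Leaving out 1 library gave 109, 53 and 38 called genes without Cas9, F3 and M6 of 4-6 h, and 579, 41 and 95 without Cas9, F3 and M6 of 2-4 h. Each of the 291 called genes kept its direction in every one of these fits. Leaving out whole windows does not alter the change itself, so there the direction could not differ and adds no support. The fits without 1 library reuse the rest of the values that made the calls, so a kept direction adds little there too. Of 19 alternative fits, the 12 largest falls passed in 15 to 17 and the 12 largest rises in 7 to 13. With each library centred on its TSSs of a mean of at least 3, 104 genes rose and 174 fell.

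**Figure D1:**
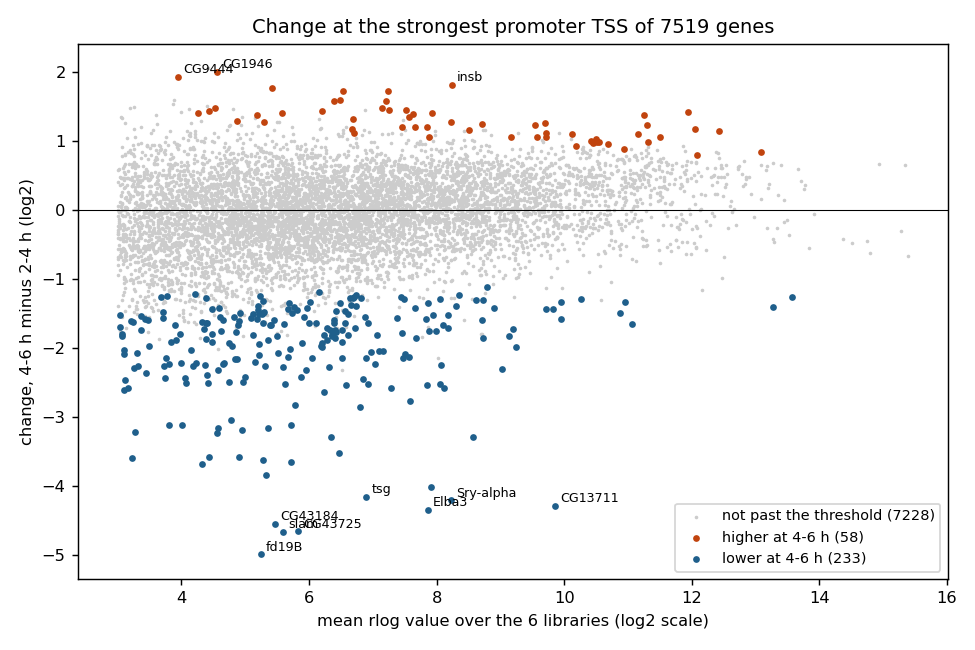
Change at the strongest promoter of each gene (4-6 h minus 2-4 h, log2) against its mean rlog value over the 6 libraries; each point is 1 of the 7519 genes, with the 58 that rose in red and the 233 that fell in blue. The falls reach -5.00 and the rises 2.00.

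Genes of cellularization were among the falls. slam, which drives the inward growth of the membrane, had 2.75, 3.69 and 3.32 at 4-6 h, against 7.62, 8.28 and 7.85 at 2-4 h. Every 4-6 h library lay below every 2-4 h library, and the change was -4.67 ± 0.33 (limma, adjusted p = 2.29e-06). Sry-alpha, an organiser of actin at the same membranes, had 5.25, 6.85 and 6.27 at 4-6 h, against 10.63, 9.74 and 10.64 at 2-4 h, again without overlap. It fell by 4.21 ± 0.39. bnk, which holds back the contraction of the actin rings, had 2.66, 4.24 and 3.51 at 4-6 h, against 7.71, 6.34 and 7.23 at 2-4 h, and fell by 3.62 ± 0.44 with no overlap. halo, which directs lipid droplet transport, had 12.62, 13.05 and 13.16 at 4-6 h, against 14.40, 13.91 and 14.32 at 2-4 h. Its fall of 1.27 ± 0.21 was smaller but also free of overlap (adjusted p = 0.00438). Of the 9 measured genes of the cellularization list, 5 fell and 0 rose, against 233 and 58 of all 7519 genes. Those that fell are the genes above and Z600, which is also counted in the cell cycle list below. The median change of the cellularization list was -1.27, against -0.04 over all genes.

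The cell cycle list was split. Z600, an inhibitor of mitotic cyclin-dependent kinase that keeps cells from dividing during gastrulation, had 3.44, 3.50 and 3.30 at 4-6 h, against 7.19, 6.79 and 7.78 at 2-4 h. The windows were far apart and the change was -3.84 ± 0.35. twe, the Cdc25 phosphatase of meiosis and the early divisions, had 3.72, 3.49 and 3.96 at 4-6 h, against 5.09, 6.30 and 7.25 at 2-4 h, and fell by 2.49 ± 0.40 without overlap. Dp, the partner of the E2F factors, went the other way, with 6.57, 7.62 and 7.32 at 4-6 h against 6.03, 4.98 and 5.79 at 2-4 h. Its rise was 1.57 ± 0.37 (adjusted p = 0.0357), and it had 9.53 on average at 6-8 h. The other 21 of the 24 measured genes did not pass the test, against 7228 of all 7519 genes.

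Of the dorsal patterning genes 3 fell and 1 rose. tsg, a secreted modulator of BMP signalling, had 4.46, 5.02 and 4.96 at 4-6 h, against 9.08, 8.73 and 9.11 at 2-4 h. scw, a BMP ligand of the blastoderm, had 5.58, 6.06 and 6.09 at 4-6 h, against 9.32, 10.16 and 10.28 at 2-4 h. Both fell with no overlap, tsg by 4.16 ± 0.31 and scw by 4.01 ± 0.27 (adjusted p = 3.71e-06 and 2.02e-06). zen, the homeobox gene of the amnioserosa, had 2.76, 2.80 and 3.08 at 4-6 h, against 5.77, 3.48 and 5.13 at 2-4 h. Its 2-4 h values varied widely, though the windows did not overlap, and the fall was 1.92 ± 0.44 (adjusted p = 0.0333). pnr, a GATA factor of the dorsal ectoderm, had 8.75, 7.95 and 8.64 at 4-6 h, against 7.28, 7.19 and 7.28 at 2-4 h, and rose by 1.20 ± 0.29 without overlap. The remaining 14 of 18 measured genes of the dorsal ectoderm list did not pass, against 7228 of all 7519 genes.

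Subunits of the ELBA complex, a boundary-binding complex active in the early embryo, fell together. Elba3 had 4.89, 6.12 and 6.03 at 4-6 h, against 10.54, 9.82 and 9.75 at 2-4 h, a change of -4.35 ± 0.34. Bsg25A, which encodes Elba1, had 3.63, 4.39 and 3.63 at 4-6 h, against 7.14, 7.78 and 7.70 at 2-4 h, a change of -3.65 ± 0.33. Neither overlapped between windows. Their divergent starts lie 3112 bp apart on 2L, and both carry a TATA box in the sequences above. Elba2 had 5.49, 5.39 and 6.12 at 4-6 h, against 7.22, 8.67 and 8.69 at 2-4 h, and fell by 2.53 ± 0.33. Elba2 was highest at 0-2 h, with a mean of 9.32, whereas Elba3 and Bsg25A were highest at 2-4 h.

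The largest fall of all was at fd19B, a forkhead family gene. It had 3.29, 2.28 and 2.65 at 4-6 h, against 7.97, 7.31 and 7.93 at 2-4 h. No library of the 2 windows came near the other, and the change was -5.00 ± 0.38 (adjusted p = 3.71e-06). The uncharacterised genes CG43725, CG43184 and CG13711 fell by 4.66 ± 0.37, 4.55 ± 0.36 and 4.30 ± 0.28. CG13711 was the strongest of these promoters, with 7.47, 8.08 and 7.58 at 4-6 h, against 11.86, 11.79 and 12.37 at 2-4 h. At mute, a gene of the histone locus body, the strongest promoter fell by 3.69 ± 0.40 with no overlap. Its promoters 864 and 4179 bp away changed by only -0.32 ± 0.34 and -0.50 ± 0.36 and did not pass.

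**Figure D2:**
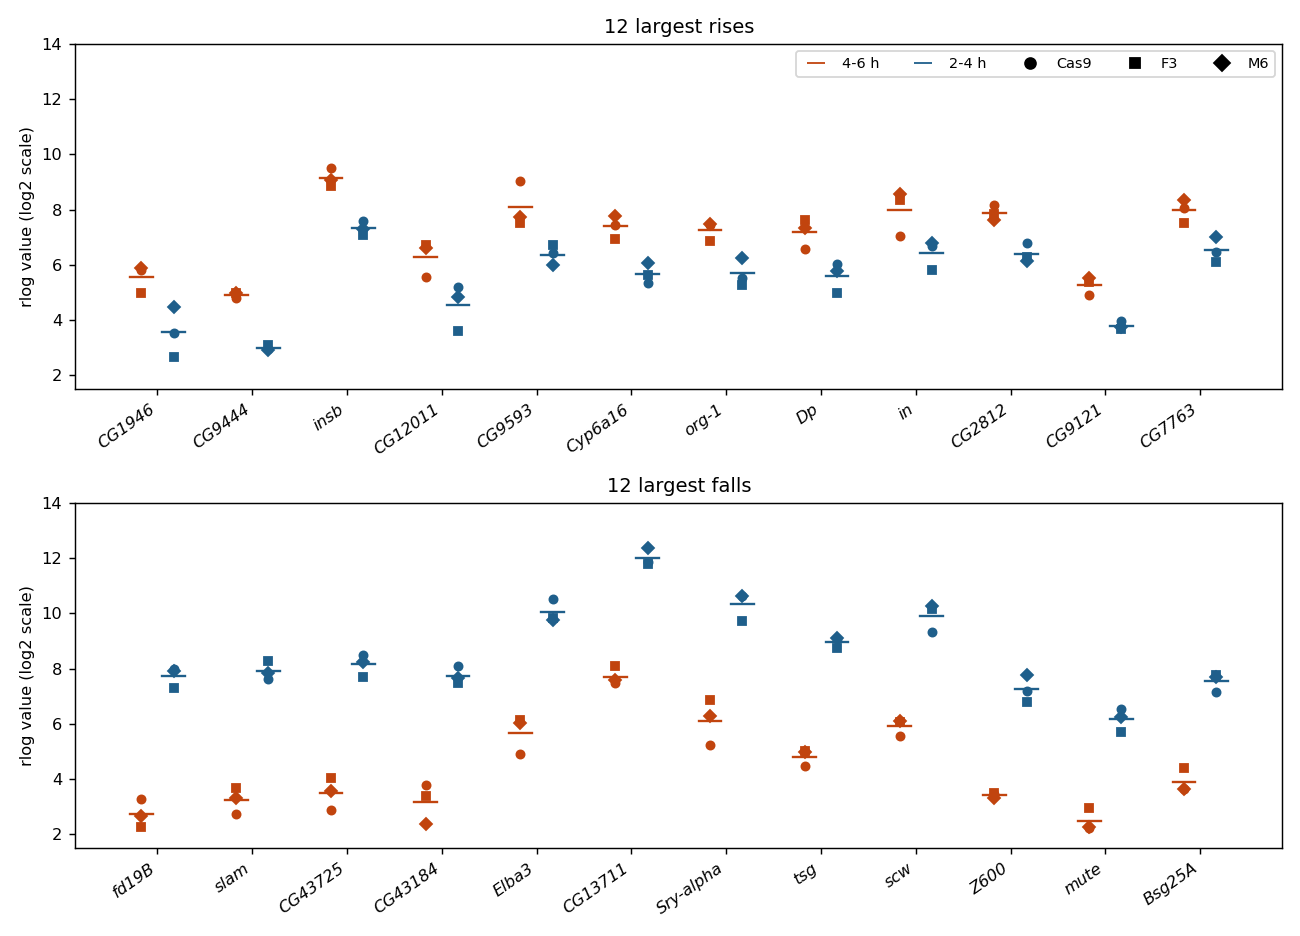
rlog values (log2 scale) of the 12 largest rises (upper) and the 12 largest falls (lower), with 4-6 h in red left of 2-4 h in blue; each symbol is 1 library of Cas9, F3 or M6 and bars are means of 3. The windows are separate in all 24 genes, with fd19B the farthest apart.

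The rises were smaller and their genes more varied. CG1946 had 5.81, 4.97 and 5.89 at 4-6 h, against 3.52, 2.66 and 4.47 at 2-4 h, the largest rise at 2.00 ± 0.42 (adjusted p = 0.0193). CG9444 had 4.80, 4.96 and 4.96 at 4-6 h, against 2.93, 3.10 and 2.90 at 2-4 h, with a tight spread in both windows and a rise of 1.93 ± 0.37. insb, which encodes a nuclear inhibitor of Notch signalling in the nervous system, had 9.49, 8.85 and 9.07 at 4-6 h, against 7.59, 7.07 and 7.31 at 2-4 h. Each of these 3 genes was higher in every 4-6 h library than in any of 2-4 h. insb rose by 1.81 ± 0.33 (adjusted p = 0.00911) and averaged 9.96 at 6-8 h. org-1, a T-box gene of muscle founder cells, had 7.46, 6.87 and 7.49 at 4-6 h, against 5.53, 5.27 and 6.26 at 2-4 h, and rose by 1.59 ± 0.32. Cyp6a16, a cytochrome P450, and in, a planar polarity gene, rose by 1.72 ± 0.29 and 1.57 ± 0.35. CG12011, CG9593, CG2812, CG9121 and CG7763 rose by 1.76 ± 0.42, 1.73 ± 0.39, 1.48 ± 0.26, 1.47 ± 0.34 and 1.45 ± 0.29. CG9593 stood out by its course, with 9.05, 7.53 and 7.72 at 4-6 h, against 6.41, 6.71 and 6.00 at 2-4 h, and a mean of only 5.71 at 6-8 h.

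Most genes that pattern the segments and tissues did not pass the test, and nor did 7228 of all 7519 genes. In the gap and terminal list of 11 genes, hb rose and oc fell. oc (orthodenticle), a head gap gene, had 5.67, 5.50 and 5.42 at 4-6 h, against 7.21, 7.35 and 7.28 at 2-4 h, a clean separation with a change of -1.75 ± 0.29 (adjusted p = 0.00502). Another oc promoter, 7462 bp away, changed by 0.06 ± 0.32 and did not pass. hb is described with its promoters below. Of 9 pair-rule genes only ftz passed, with 4.47, 4.10 and 5.02 at 4-6 h, against 6.35, 5.73 and 5.97 at 2-4 h, a fall of 1.49 ± 0.33 with no overlap. None of 16 segment polarity genes and none of 8 Hox genes passed with limma, with 14 and 7 of them above 0, against 3558 of all 7519 genes. An unadjusted p under 0.05 was found in 2 and 3 of them, against 1580 of all genes. Their medians were 0.40 and 0.61. The most active segment polarity promoters were fz2, a Wnt receptor, at 13.54, 13.30 and 13.99 at 4-6 h against 13.35, 12.91 and 12.56 at 2-4 h, and ptc, the Hedgehog receptor, at 13.04, 12.76 and 13.25 against 12.89, 12.44 and 11.93. In both genes each strain was higher at 4-6 h, but the adjusted p was 0.215 and 0.337. Of the stage markers zen, eve, ftz, sna and twi, zen and ftz fell, by 1.92 and 1.49. The markers eve, sna and twi, with changes of -0.15, 0.26 and -0.51, did not pass. Nor did the neuroblast markers wor, mira, pros and nerfin-1, with 1.01, -0.17, 0.68 and 0.16. Abd-B, the most posterior Hox gene, had a change of 0.78 ± 0.25 (adjusted p = 0.141), and Antp had 0.34 ± 0.25 (adjusted p = 0.546).

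Among 19 mesoderm genes only sns passed, against 58 rises and 233 falls among all 7519 genes. sns, a receptor of myoblast fusion, had 12.93, 12.26 and 12.75 at 4-6 h, against 11.60, 10.98 and 11.12 at 2-4 h, and rose by 1.42 ± 0.21 with no overlap (adjusted p = 0.00223). Of 7 gut genes, byn, the hindgut Brachyury gene, fell, with 8.26, 8.27 and 8.15 at 4-6 h against 9.24, 9.62 and 9.17 at 2-4 h (change -1.12 ± 0.25). Of 9 ecdysteroid genes, the nuclear receptor gene ftz-f1 had 3.69, 2.27 and 2.81 at 4-6 h, against 4.20, 4.57 and 4.71 at 2-4 h, and fell by 1.57 ± 0.38 (adjusted p = 0.0417). The windows did not overlap in byn or ftz-f1, but neither passed after centring on the TSSs with a mean of at least 3.

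No gene passed with limma in the gastrulation (11 genes, median change 0.47), neuroectoderm (9, 0.06), neuroblast (18, 0.23), Notch (20, 0.27), EGF receptor (10, 0.42), JAK-STAT (6, -0.14), sex determination (10, -0.06), trachea and salivary gland (10, 0.31), hemocyte and glia (7, 0.52) and genome activation (6, -0.15) lists. At an unadjusted p under 0.05, 3, 1, 5, 6, 3, 2, 5, 3, 2 and 0 of their genes passed, against 1580 of all 7519 genes. The sign of the small medians of the gap, sex determination, cell cycle, neuroectoderm and gut lists depended on the scaling of the libraries. Strains differed within these lists. The median change of the Notch list was -0.63 in Cas9, 1.19 in F3 and 0.50 in M6, that of the neuroblast list was -0.76, 0.94 and 0.72, and that of the pair-rule list was -1.12, 0.53 and 0.30. In these lists the tinWT line was lower and the tinmDPE lines were higher at 4-6 h. Other lists had the same signs, among them gap and terminal (-0.84, 0.31 and 0.40), mesoderm (-0.42, 0.71 and 0.73) and gut (-0.98, 0.31 and 0.53). The Hox list did not (0.41, 0.51 and 0.62). The tin promoter had these signs too, with a change of only 0.11 in M6. Its tinmDPE change minus its tinWT change was 0.95 and did not pass the threshold.

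Of 14 measured maternal genes, 3 fell, 0 rose and 11 did not pass, against 233, 58 and 7228 of all 7519 genes. A change below 0 was found in 13, against 3961 of all 7519 genes. The 3 that fell were tor, the receptor of the terminal system, pgc, a repressor of transcription in germ cells, and bcd, the anterior determinant. bcd had 5.78, 4.76 and 5.80 at 4-6 h, against 6.72, 7.93 and 8.14 at 2-4 h, and fell by 2.16 ± 0.43 (adjusted p = 0.0143). tor fell by 2.29 ± 0.34 and pgc by 2.26 ± 0.42, and all 3 had no overlap. osk, swa and piwi had changes of -1.16, -1.56 and -1.41 and did not pass. The 78 ribosomal protein genes had a median of -0.34, with 72 below 0, 0 called by limma and 12 at an unadjusted p under 0.05, but Cas9 had a median of 0.43, against -0.70 in F3 and -0.71 in M6. Of 32 proteasome genes only Prosalpha4 fell, by 1.31 ± 0.30, against 3.10% of all genes, and the median was -0.56.

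Markers of older embryos varied between libraries of the same window. The 12 muscle genes averaged 5.57, 7.57 and 5.28 at 4-6 h, against 6.28, 7.06 and 7.48 at 2-4 h, and the 6 cuticle genes averaged 4.25, 6.65 and 4.28, against 5.14, 7.23 and 7.09. In both lists 0 genes passed with limma, and 3 and 4 had an unadjusted p under 0.05. In these windows F3 of 4-6 h and both tinmDPE lines of 2-4 h were the high libraries. The highest of all 12 libraries was M6 of 0-2 h, with 8.48 for muscle and 7.91 for cuticle genes. M6 of 6-8 h had 7.13 and 6.60. Lcp65Ag2, a cuticle protein gene, had 6.77, 10.25 and 6.44 at 4-6 h, against 7.30, 10.97 and 10.57 at 2-4 h. The part of such RNA in the gene results was not tested. Of 15 ovary and adult markers only Cp15, a chorion gene, was measured at this level, with 7.03, 5.03 and 4.26 at 4-6 h against 3.42, 3.96 and 2.78 at 2-4 h, and it did not pass (adjusted p = 0.0972).

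The falls formed 2 classes by their course over the 4 windows. In 79 genes the mean was highest at 2-4 h, and in 154 it was already highest at 0-2 h. For the first class the median over genes was 5.73, 6.95, 3.87 and 3.69 in Cas9 at 0-2, 2-4, 4-6 and 6-8 h, and F3 and M6 followed the same shape. Their median change was -2.71 in Cas9, -2.02 in F3 and -2.14 in M6. For the second class the medians were 8.19, 5.96, 4.74 and 4.54 in Cas9, 8.36, 7.19, 5.04 and 4.85 in F3, and 8.05, 7.28, 5.03 and 5.13 in M6. In Cas9 this class was already lower at 2-4 h than in F3 and M6, and its median change was -1.20, against -2.06 in F3 and -2.10 in M6. The change in Cas9 was smaller than in both other lines for 114 of the 154. The classes use the same values as the falls themselves and are a description.

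**Figure D3:**
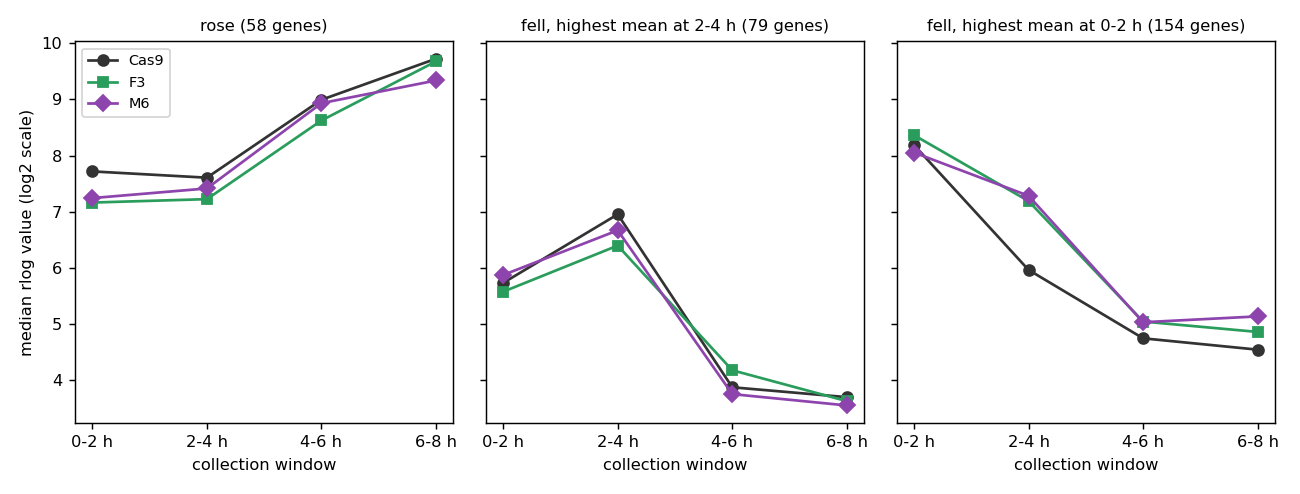
Median rlog value (log2 scale) of the 58 genes that rose, the 79 that fell with their highest mean at 2-4 h and the 154 that fell with their highest mean at 0-2 h, by collection window and strain. In the third panel Cas9 lies at 5.96 at 2-4 h, below F3 at 7.19 and M6 at 7.28.

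Genes of the second class include maternal products of the egg and were named after their values were seen. APC7, a subunit of the anaphase-promoting complex, had 3.57, 3.29 and 4.45 at 4-6 h, against 5.72, 7.52 and 7.55 at 2-4 h, with a mean of 9.06 at 0-2 h. cup, a translational repressor of the oocyte, had 6.32, 6.41 and 7.02 at 4-6 h, against 7.82, 9.88 and 9.68 at 2-4 h. mtrm, an inhibitor of Polo kinase in meiosis, had 5.70, 5.80 and 6.49 at 4-6 h, against 7.53, 9.12 and 9.10 at 2-4 h. In all 3 the Cas9 value of 2-4 h was the lowest of its window. APC7 fell by 3.16 ± 0.46, cup by 2.54 ± 0.37 and mtrm by 2.58 ± 0.34. hoe1, BoYb (a Tudor protein of the piRNA pathway), asRNA:CR43460 and Cyp6v1 fell by 2.86, 2.83, 2.78 and 2.54.

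The libraries of 0-2 h and 6-8 h, whose values do not enter the change from 2-4 h to 4-6 h although they share its estimate of the spread, showed the same directions for most called genes. Of the 233 falls, 208 were lower at 6-8 h than at 0-2 h (89.3%), against 24.9% of all 7519 genes and 7.5% of all TSSs. Of the 58 rises, 53 were higher (91.4%), against 18.9% of all genes and 9.88% of all TSSs. No fall was called higher and no rise was called lower in that contrast by limma. Of the rises, 48 had their highest mean at 6-8 h and 10 at 4-6 h.

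The authors' own TSS lists, made library by library from the same 6 libraries, describe presence. Of the 233 falls, 195 were in all 3 lists of 2-4 h, 97 were in all 3 lists of 4-6 h and 32 in 0 lists of 4-6 h, against 5705, 4830 and 202 of all 7519 genes. fd19B, Z600 and mute were among those in 0 lists of 4-6 h. Of the rises, 50 were in all 3 lists of 4-6 h and 45 in all 3 of 2-4 h. Among genes in all 6 lists, the called base was the same in both windows in 3 of 3 strains for 35 of 38 rises and 53 of 88 falls, against 2198 of 4027 of all genes.

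Promoter sequence was described in each class. A TATA box stood at its usual place in 35 of the 79 falls that were highest at 2-4 h (44.3%), against 5 of the 154 that were highest at 0-2 h (3.25%), 2 of the 58 rises (3.45%), 4.81% of all 7519 genes and 4.86% of the 18098 promoter TSSs. The Zelda core CAGGTA, searched on both strands from 300 bases before to 50 after the start, was in 48 of the 79 (60.8%), 15 of the 154 (9.74%), 6 of the rises (10.3%), 9.27% of all genes and 10.3% of promoter TSSs. More than 1 such match was found in 31 of the 79 and in 0 of the 154 and 0 of the rises, against 1.32% of all genes. The longer CAGGTAG, which contains the core, was in 35.4% of the 79, 0.649% of the 154, 2.78% of all genes and 3.34% of promoter TSSs. Motif matches are a description with no test, and a match is not a bound site.

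The 200 bases before the start are shown for 3 of the largest falls, with the Zelda core in capitals as CAGGTA or as its reverse complement TACCTG.
slam, chr2L:6373321-6373520, plus strand: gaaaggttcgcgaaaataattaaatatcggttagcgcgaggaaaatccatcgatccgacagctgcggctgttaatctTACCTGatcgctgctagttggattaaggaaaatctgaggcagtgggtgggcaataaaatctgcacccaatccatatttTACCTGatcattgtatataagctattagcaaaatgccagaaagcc
CG13711, chr3L:4757682-4757881, plus strand: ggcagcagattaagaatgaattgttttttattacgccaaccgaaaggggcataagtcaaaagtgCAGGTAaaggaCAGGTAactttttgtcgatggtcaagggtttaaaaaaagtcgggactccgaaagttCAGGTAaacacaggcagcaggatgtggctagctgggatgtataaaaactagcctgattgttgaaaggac
scw, chr2L:19700960-19701159, minus strand: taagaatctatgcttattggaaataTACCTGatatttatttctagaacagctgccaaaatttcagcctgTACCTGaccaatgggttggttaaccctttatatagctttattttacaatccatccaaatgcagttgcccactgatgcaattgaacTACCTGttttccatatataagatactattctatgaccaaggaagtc
slam holds 2 of them in this stretch, at 123 and 45 bases before the start, and CG13711 and scw hold 3 each. Some other large falls hold fewer here. fd19B, the largest fall, holds 0 in this stretch, and CG43725 and Sry-alpha hold 1 each, while tsg and Z600 hold 2 each.

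Initiators and factor motifs of other kinds were counted in the same way. An initiator was found in 24 of 58 rises (41.4%), against 31.6% of the 79, 21.4% of the 154, 16.8% of all genes and 14.5% of promoter TSSs. GAGAG, the motif of the GAGA factor, on either strand in the same window as CAGGTA, was in 63.8% of rises, 32.9% of the 79, 40.9% of the 154, 36.9% of all genes and 42.7% of promoter TSSs. The DRE (TATCGATA), a palindrome of housekeeping promoters, was in 1 of 58 rises and 1 of the 79, against 21 of the 154 (13.6%), 14.4% of all genes and 8.56% of promoter TSSs.

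Gene structure was described over the same classes. Of the protein-coding falls that were highest at 2-4 h, 27 of 73 had a single exon (37.0%), against 12 of 151 of those highest at 0-2 h (7.95%), 4 of 52 rises (7.69%) and 8.36% of all coding genes. The median coding gene was 1446 bp long in the first class, 3502 bp in the second and 6497 bp among the rises, against 3253 bp over all. Among genes that did not pass and had mean values in the middle range of the falls, 9.58% had a single exon, 3.59% a TATA box and 8.89% the Zelda core.

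**Figure D4:**
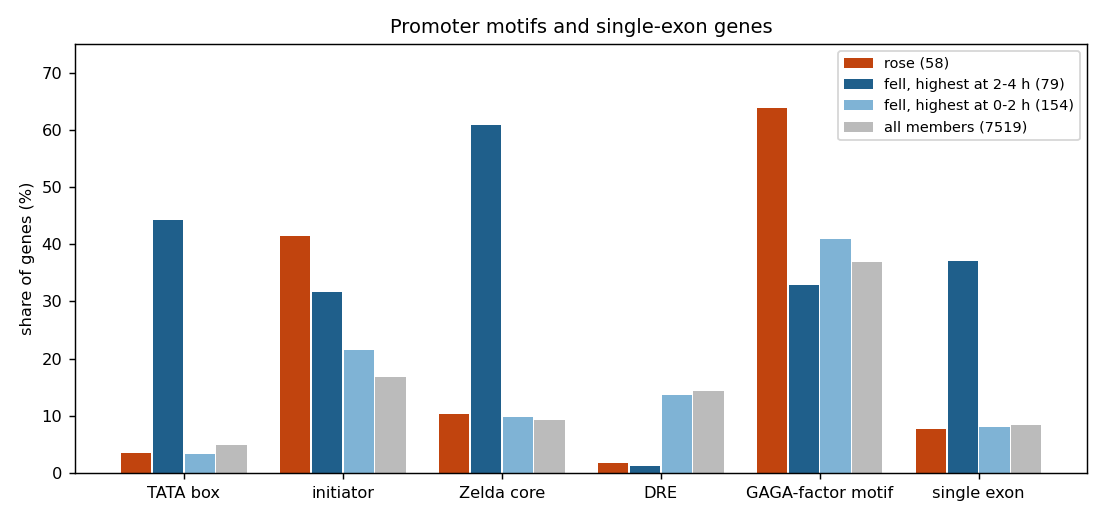
Share of genes (%) with a TATA box, an initiator, the Zelda core, the DRE and the GAGA-factor motif, and share of protein-coding genes with a single exon, for genes that rose, the 2 classes that fell and all genes. The falls highest at 2-4 h have a TATA box in 44.3%, the Zelda core in 60.8% and a single exon in 37.0%, against 4.81%, 9.27% and 8.36% of all genes.

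Some of the fallen genes lay within 10 kb of another. These include Bsg25A and Elba3, slam and Nepl4 (5637 bp apart), term and CG7271 (5002 bp), CG43725 and CG14915 (4485 bp), CG16813, CG16815 and Mabi, and zen and bcd (5261 bp) in the Antennapedia complex. Whether such neighbours are more common than among other genes was not tested. By chromosome arm the falls numbered 44 of the 1277 genes on X, 47 of 1352 on 2L, 38 of 1501 on 2R, 54 of 1482 on 3L, 50 of 1830 on 3R and 0 of 77 on the fourth chromosome.

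Genes with more than 1 promoter allowed the change to be compared within a gene. In 1124 genes, 1634 pairs of promoters at least 300 bp apart were compared, each time the strongest promoter minus another, and 100 pairs in 94 genes differed in their change (6.12%). Distances within a gene are between the starts of the merged regions. In 1 of the 100 each promoter passed by itself and in opposite directions. For 71 of the pairs, in 67 genes, both starts lay on the strand of the gene.

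hb was the only gene whose promoters were called in opposite directions. It has a distal promoter used in the ovary and again in the later embryo, and a proximal one that drives the early anterior domain, and 3222 bp lie between the starts here. The distal one, at chr3R:8697742-8697892, had 7.92, 8.28 and 8.60 at 4-6 h, against 7.14, 7.26 and 6.80 at 2-4 h. The proximal one, at chr3R:8694520-8694674, had 4.14, 4.70 and 4.30 at 4-6 h, against 6.34, 5.89 and 6.05 at 2-4 h. Neither overlapped between windows, with a rise of 1.20 ± 0.27 and a fall of 1.71 ± 0.33, and the difference between them was 2.91 ± 0.39 (limma, adjusted p = 0.00141). Both hb and Sxl were picked for description after their values were seen.

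Sxl, the switch gene of sex determination, has an early promoter that reads the X chromosome dose and an upstream maintenance promoter. The upstream start, at chrX:7097978-7098128, had 9.12, 8.60 and 8.98 at 4-6 h, against 8.58, 8.18 and 8.36 at 2-4 h, a change of 0.53 ± 0.24 that did not pass (adjusted p = 0.338). The start 5176 bp downstream had 2.46, 2.81 and 3.16 at 4-6 h, against 5.93, 5.18 and 6.04 at 2-4 h, and fell by 2.91 ± 0.35 with no overlap. The difference was 3.44 ± 0.38 (adjusted p = 0.000276). The starts of both genes are shown with the same marks as above, since their letters differ between the promoters.
hb promoter 1, chr3R:8697798-8697857, minus strand: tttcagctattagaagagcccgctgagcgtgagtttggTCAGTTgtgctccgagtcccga
hb promoter 2, chr3R:8694576-8694635, minus strand: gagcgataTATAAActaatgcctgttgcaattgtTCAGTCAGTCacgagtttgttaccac
Sxl promoter 1, chrX:7098034-7098093, minus strand: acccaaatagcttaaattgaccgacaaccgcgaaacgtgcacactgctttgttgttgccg
Sxl promoter 2, chrX:7092859-7092918, minus strand: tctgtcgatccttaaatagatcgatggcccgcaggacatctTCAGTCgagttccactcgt
The early hb promoter holds a TATA box and overlapping initiators, and the distal one holds an initiator alone. The downstream Sxl start has an initiator, and the upstream one has neither mark.

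By size of the difference, hrg, spri and Bsg25D came first. At spri, which encodes a Ras and Rab5 effector, the strongest start had 10.44, 9.43 and 9.94 at 4-6 h, against 10.10, 10.02 and 9.87 at 2-4 h, while a start 53015 bp away had 1.92, 1.85 and 2.62 at 4-6 h, against 6.14, 5.72 and 5.45 at 2-4 h. The strong start overlapped between windows and the other did not, and the difference was 3.58 ± 0.44 (adjusted p = 0.000591). At Bsg25D, a blastoderm gene related to Ninein, the strongest start had 4.10, 5.06 and 4.96 at 4-6 h, against 8.66, 7.43 and 8.59 at 2-4 h, while a start 902 bp upstream changed by only -0.05 ± 0.32. The difference was -3.47 ± 0.48. At hrg, a poly(A) polymerase gene, the strongest start fell by 3.13 ± 0.48, and starts 727 and 490 bp away gave differences of -4.42 ± 0.49 and -3.86 ± 0.68. Leaving out a strain gave 255 pairs without Cas9, 11 without F3 and 5 without M6.

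**Figure D5:**
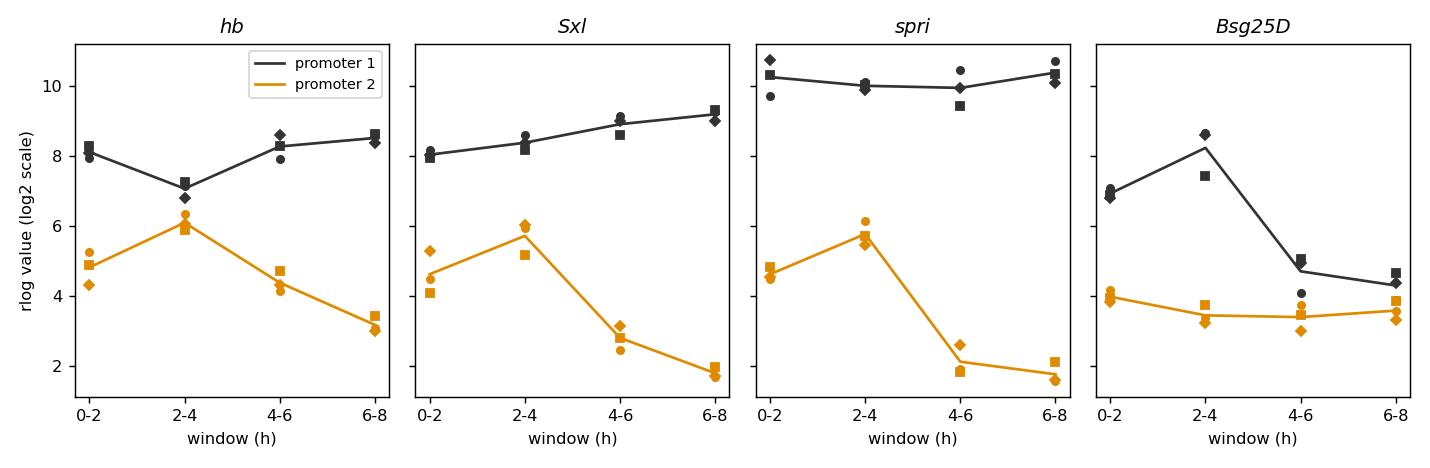
rlog values (log2 scale) of paired promoters of hb, Sxl, spri and Bsg25D by collection window in hours; lines are means of 3 libraries, symbols are Cas9 (circle), F3 (square) and M6 (diamond), and promoter 1 is the one with the higher mean. At hb and Sxl promoter 2 falls by 1.71 and 2.91 at 4-6 h while promoter 1 does not fall.

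The change between windows was also compared between genotypes. In 371 of the 7519 genes (4.93%) the change of the tinmDPE lines minus that of the tinWT line passed the threshold, 163 above 0 and 208 below 0, against 5.4% of all TSSs. These include 8 of the falls and 0 of the rises. The tinWT group is 1 library per window, so its spread was taken to be that of F3 against M6. After centring each library on its median over all TSSs 30 genes passed, with only TSSs of a mean of at least 3 in the fit 560 passed, and 0 passed when the prior variance had no trend.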

How the data were processed

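csRNA-seq libraries of 3 strains in 4 windows were analysed, 6 of them in the comparison described. The authors merged TSS lists by strand with HOMER on dm6 and deposited, per the file headers, regularized log values (log2 scale, same-strand tags) for 45839 merged TSSs. STAR 2.7.10a and edgeR are named in the submitters' processing notes, with no role given. The deposited merged list also gives the position called in each library, and was used for presence and for the start base. Depth was 2632187 to 10553406 tags per library. It limits the precision of low values, which rlog draws together, so changes of weak promoters may be understated. This was not tested.

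All TSSs were fitted with limma 3.58.1 in R 4.3.3 (window plus strain, trend in the variance prior, all 12 libraries) with Benjamini-Hochberg adjustment at 0.05. The fit was also run on data simulated from the same model with independent noise, which cannot show that the calls hold in these libraries. Strains pair the windows because each is 1 line. Deviations of the paired libraries from their window means correlated at -0.11, -0.14 and -0.08 for Cas9, F3 and M6. Genotypes were compared in a limma fit on genotype-by-window means, and promoter pairs in a limma fit of within-gene differences. Genes were matched to RefSeq by Entrez ID (7518 of 7519). Of the members, 231 lay on the strand opposite to their gene, 8 of them among the falls.

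Named genes are tin, the 12 largest rises and falls, up to 4 passing genes of each list or else the 2 of highest mean, and the 4 largest promoter differences. Members and lists were chosen with earlier results of these data known. The lists are cellularization, gap and terminal, pair-rule, segment polarity, Hox, dorsal ectoderm, mesoderm, gastrulation, neuroectoderm, neuroblast, Notch, EGF receptor, JAK-STAT, sex determination, cell cycle, trachea and salivary gland, gut, hemocyte and glia, ecdysteroid, maternal, genome activation, ribosomal protein, proteasome, late muscle, late cuticle, and ovary and adult. Alternatives varied the libraries, block, scaling, filters, variance prior, promoter choice, promoter distance and motif windows. Keeping only members, or only pairs, on the strand of the gene was added after seeing the data.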

Additional observations from a re-analysis of the deposited data

Results flagged for a closer look

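The change of the tinmDPE lines minus that of the tinWT line passed the threshold with limma in 371 genes (4.93%), against 5.4% of all TSSs. The count was 30 after centring each library on all TSSs and 0 with no trend in the variance prior. The tinWT group is 1 library per window, and its spread was taken to be that of F3 against M6. Among the genes named here, 5 were past the threshold. Elba3 had 6.12 and 6.03 in F3 and M6 at 4-6 h, against 9.82 and 9.75 at 2-4 h, and 4.89 in Cas9 at 4-6 h, against 10.54 at 2-4 h. The tinmDPE change minus the Cas9 change was 1.93 ± 0.25 (adjusted p = 0.0128). repo, the glial homeobox gene, and pros, a neuroblast gene, differed by 1.81 ± 0.24 and 1.72 ± 0.33 (adjusted p = 0.0155 and 0.0415), with a change above 0 in F3 and M6 and below 0 in Cas9. Tm1, a tropomyosin, differed by 1.65 ± 0.32 in the same way (adjusted p = 0.0418). RpL34b differed by -1.39 ± 0.23 (adjusted p = 0.0274), below 0 in both tinmDPE lines and above 0 in Cas9. None of the 5 passed when the prior variance had no trend, and genotype and strain cannot be told apart for tinWT, which is 1 line.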

How the results depend on the processing

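Each of the 291 called genes kept its direction in every fit. Without other windows or the block the change itself is the same. Without a strain the direction was fixed too, since the called genes had the same sign in all strains. In those fits the direction adds no support. The fits without 1 library or with other scaling reuse values that made the calls. The smallest rise was 0.80 and the smallest fall -1.12, so a kept direction adds little there too. Of all TSSs, 967 passed. With the 6 libraries alone this was 23, and 15 of the genes. Without the 6-8 h libraries it was 93 TSSs and 41 genes. Leaving out a strain gave 0 to 2 TSSs and 0 to 2 genes, with 783 to 2651 genes at an unadjusted p under 0.05, and leaving out 1 library gave 76 to 1116 TSSs and 38 to 579 genes. The highest of these gene counts, 579, came without Cas9 of 2-4 h, and the cause of the differences was not tested. Pairs of promoters numbered 5 to 255 when a strain was left out. Without the strain as a block, 229 genes passed, of which 227 were among the 291, and 822 TSSs and 83 promoter pairs. Of the named genes, insb, in, zen and ftz-f1 were lost without the block. The genotype difference gave 30, 560 and 0 genes after centring on all TSSs, with the mean of at least 3 and without the trend, and the cause was not tested. Its fits without F3 or without M6 were not run, since no residual degrees of freedom are left. Centring each library on TSSs with a mean of at least 3 moved the median change of all TSSs to 0.12, against -0.01, and gave 104 higher and 174 lower genes in place of 58 and 233. With the same filter on the fit, 406 genes passed. Keeping genes on their own strand gave 283, and pairs 71. Widening the motif windows by 5 bp gave a TATA box in 48.1% of the falls highest at 2-4 h. Depth limits the weakest promoters.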

Other observations

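Genes of the nervous system, picked by eye after their values were seen, were among the 58 rises, and their share was not tested. In the neuroblast list 0 of 18 genes rose, and in the neuroectoderm list 0 of 9, against 58 of all 7519 genes. Some genes of neural signalling fell, as given below. Poxn, a Pax gene of sense organs, had 8.55, 7.92 and 8.28 at 4-6 h in Cas9, F3 and M6, against 6.67, 6.90 and 6.85 at 2-4 h. spdo, a Notch regulator of asymmetric division, had 8.78, 8.22 and 8.87 at 4-6 h, against 7.23, 6.95 and 7.51 at 2-4 h. Both rose without overlap of the windows, by 1.45 ± 0.27 and 1.40 ± 0.30 on the log2 scale (limma, adjusted p = 0.00917 and 0.0216). Sema1a and unc-5, an axon guidance ligand and receptor, rose by 1.06 ± 0.24 and 0.89 ± 0.21, Sox21a by 1.20 ± 0.29 and sqz by 0.80 ± 0.19.

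Genes of neuropeptide and amine signalling were among the falls that were highest at 2-4 h. Crz, which encodes the neuropeptide corazonin, had 5.39, 5.24 and 4.79 at 4-6 h, against 6.85, 6.76 and 6.48 at 2-4 h, and fell by 1.56 ± 0.30 (adjusted p = 0.0131). The receptor genes NPFR, Pdfr and Lgr3 fell by 2.24 ± 0.38, 1.56 ± 0.36 and 1.60 ± 0.35, Gpb5, a hormone subunit gene, by 1.97 ± 0.33, and Tdc1, a tyrosine decarboxylase gene, by 1.73 ± 0.27. Germline genes were among the falls highest at 0-2 h: otu had 7.59, 7.69 and 8.36 at 4-6 h, against 9.22, 10.72 and 10.61 at 2-4 h, and bam fell by 2.32 ± 0.38. Enzymes of energy metabolism were there too, with falls of 1.51 ± 0.36 at Pfk, 1.53 ± 0.30 at GlyP and 1.26 ± 0.29 at Fum1. These genes were picked by eye and the groups were not tested.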
